A study of Homo sapiens with 6 samples.

Results

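The NRF2 antioxidant and glutathione genes described here are 10 genes picked by symbol from the 28008 genes of the count table. The rule used no measured value, but the set was proposed with earlier results of these data known. They are NFE2L2, which encodes the transcription factor NRF2, its inhibitor KEAP1, and 8 enzymes of glutathione, thioredoxin, quinone and heme metabolism: GCLC, GCLM, GSR, GPX4, TXNRD1, SRXN1, NQO1 and HMOX1. All 10 had enough counts to be tested. The RNA-Seq libraries are from DU-145-DR/tet-MUC1shRNA cells, which were derived by continuous exposure to docetaxel (DTX) from DU-145, a human prostate cancer line, and transduced with a tet-inducible MUC1 hairpin. The DOX-negative group (3 libraries) received 0.1% DMSO as vehicle and the DOX-positive group (3 libraries) received doxycycline (DOX) at 500 ng/ml to induce the hairpin and silence MUC1-C, the transmembrane subunit of MUC1. All 6 libraries came from the DTX-resistant line, and the RNA was isolated from triplicate cultures. The labels of the vehicle-treated samples mention DTX resistance but not the hairpin, which is named for DOX-treated samples, so its presence in both groups was taken from the study. The model uses 1 hairpin sequence, and cells given DOX with a control hairpin were not analysed here, so silencing of MUC1-C and exposure to DOX cannot be told apart.

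In unstressed cells, KEAP1 binds NRF2 and directs it to the CUL3 ubiquitin ligase for destruction by the proteasome. Oxidants and electrophiles modify KEAP1, and NRF2 then accumulates in the nucleus, pairs with a small MAF protein and binds antioxidant response elements near genes for glutathione synthesis, thioredoxin reduction, NADPH supply and detoxification. NRF2 is controlled largely at the level of the protein, so transcript levels of NFE2L2 do not measure its activity, and its protein was not measured in these libraries. The study assayed reactive oxygen species in DU-145-DR cells after MUC1-C was targeted and supplied some of the cells with glutathione, which makes the transcripts of the glutathione and thioredoxin systems a natural question for the same cells.

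To show the sequences that bear on NRF2, the core of the antioxidant response element was searched as TGACNNNGC, and on the other strand as GCNNNGTCA, in RefSeq windows that run from 250 bases before to 50 bases after a transcription start (assembly GRCh38.p14). Windows were available for 8 of the 10 genes, and HMOX1 and GSR were not in the table. The motif was in 4 of the 13 windows of these genes, against 4687 of all 35116 windows (13.3%) and 14.6% of the windows of the genes tested. It was found in windows of GCLM, KEAP1 and TXNRD1, and not in those of NFE2L2, NQO1, GCLC, SRXN1 or GPX4. A match is a description of the letters and not a binding site, and elements of several NRF2 targets are known to lie farther upstream than these windows reach. The stretches with a match are printed 5′ to 3′ on the gene's strand, with 20 bases on either side and the motif in capitals.
GCLM, chr1:93909436-93909484, minus strand: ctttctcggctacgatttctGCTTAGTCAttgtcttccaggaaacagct
KEAP1, chr19:10502774-10502845, minus strand: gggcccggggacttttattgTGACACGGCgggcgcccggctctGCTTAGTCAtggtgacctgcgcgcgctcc
TXNRD1, first start, chr12:104215660-104215799, plus strand: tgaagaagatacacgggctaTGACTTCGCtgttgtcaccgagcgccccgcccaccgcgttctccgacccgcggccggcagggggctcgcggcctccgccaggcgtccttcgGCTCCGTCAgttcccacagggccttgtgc
TXNRD1, second start, chr12:104286910-104286958, plus strand: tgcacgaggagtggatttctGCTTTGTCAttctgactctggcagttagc
The motif of GCLM began 34 bases before the start, and the same 9 letters were found 31 bases before the KEAP1 start, where a second match lay at 54 bases. The first TXNRD1 window held 2 matches and the second window held 1.

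The libraries held between 15092691 and 23243713 counts, and 3 counts, used as the detection floor, equalled 0.129 to 0.199 CPM (counts relative to the library total, scaled by TMM library sizes). Counts of MUC1 were 387, 484 and 396 without DOX and 75, 74 and 66 with DOX, a log2 fold change of -2.52 (SE 0.146, edgeR quasi-likelihood test, Benjamini-Hochberg adjusted p = 4.47e-11). Of 14292 genes tested, 1955 were called lower (13.7%) and 1861 higher (13.0%) at an adjusted p under 0.05, and for 39.8% the CPM ranges of the 2 groups were separate. Of 7 epithelial markers, 6 were called higher, including EPCAM (log2 fold change 1.43) and CDH1 (0.92), and their summed level moved from 1236 to 1431 CPM in the DOX-negative libraries to 2087 to 2166 CPM in the DOX-positive libraries. The part of this shift in the results was not tested. KLK3, FOLH1 and HOXB13, markers of luminal prostate cells, were at 0 counts in every library, as were the neuroendocrine markers CHGA, CHGB and INSM1. The summed leukocyte list was 91.6 to 106 CPM and 158 to 179 CPM in the 2 groups and came nearly all from CD68, a lysosomal protein, while CD3E and MS4A1 were at 0. In bulk RNA, fewer cells with a transcript and less transcript per cell cannot be told apart.

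The data showed a lower level of most of these genes in DOX-positive cells. Of the 10, 8 fell (adjusted p under 0.05), against 13.7% of all genes tested, and 0 rose, against 13.0% of all genes. NQO1 and HMOX1 had the largest falls, and TXNRD1 and GPX4 did not pass the test. The median log2 fold change was -0.36 over the 10 genes and -0.0034 over all genes tested. The 2 groups did not overlap for 8 genes, against 39.8% of all genes tested. The falls were modest: the fitted level in DOX-positive cells was 62.8% of the DOX-negative level for HMOX1, where the fall was deepest, and 84.2% for GCLC, where it was shallowest among those called. The 8 called genes lay between the 4.72 and the 20.8 percentile of log2 fold changes over all genes tested, TXNRD1 lay at the 32.8 percentile and GPX4 at the 71.0 percentile.

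**Figure D1:**
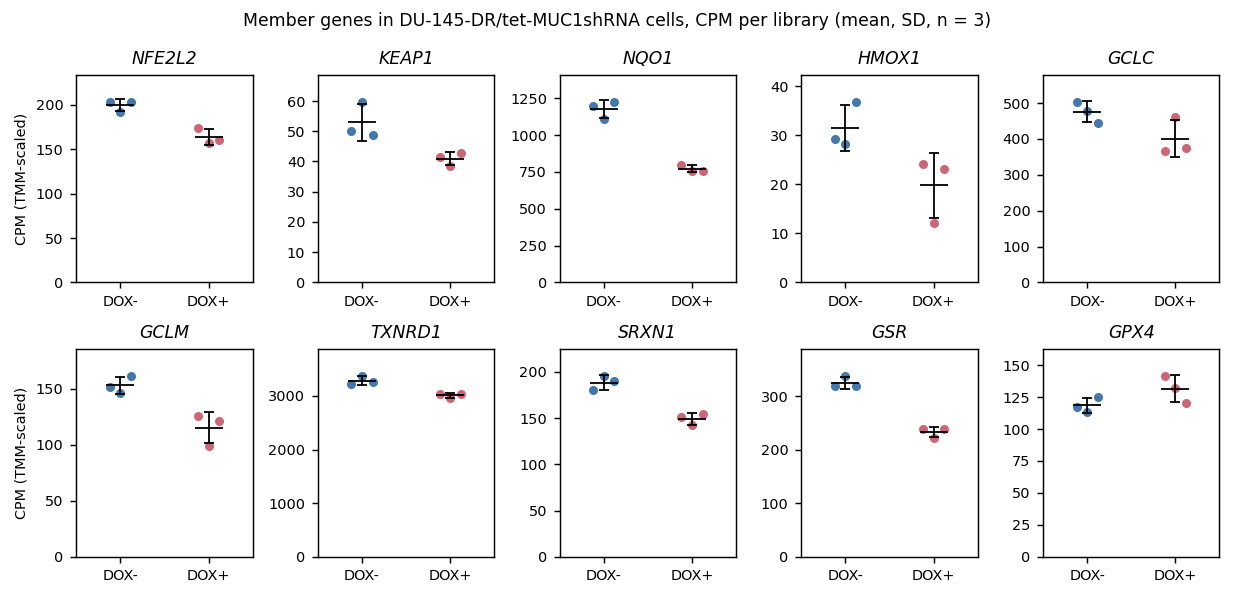
CPM of each of the 10 genes (linear axes from 0, CPM scaled by TMM library sizes) in the 3 DOX-negative and 3 DOX-positive libraries; points are libraries and horizontal lines are group means. The DOX-positive libraries sit below the DOX-negative ones for 8 of the 10 genes, and the groups overlap for GCLC and GPX4.

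Among the regulators, NFE2L2 (chr2:177227595-177392697, minus strand, GRCh38) was at 203, 192 and 204 CPM in the DOX-negative libraries and at 174, 157 and 160 CPM in the DOX-positive libraries. Each DOX-positive library was lower than every DOX-negative library. The log2 fold change was -0.29 (SE 0.0641, adjusted p = 0.00196), and the level fell by 18.0%. The gene's exons overlap AGPS and AC079305.1 on the opposite strand and AC019080.1 on the same strand, so part of its count is uncertain where counting did not use strand.

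KEAP1 (chr19:10486120-10503741, minus strand), the adaptor that presents NRF2 for ubiquitination, was at 50.1, 59.8 and 48.9 CPM in DOX-negative cells and at 41.4, 38.5 and 42.8 CPM in DOX-positive cells. The groups did not overlap, although the DOX-negative libraries were more spread, with replicate 2 the highest. Its log2 fold change was -0.37 (SE 0.0885, adjusted p = 0.00318). Thus the transcripts of the factor and of its inhibitor both fell. The log2 ratio of NFE2L2 to KEAP1 counts within a library was 1.92 ± 0.207 (SD, n = 3) in DOX-negative and 2.00 ± 0.0855 (SD, n = 3) in DOX-positive cells, a difference of 0.080 that was within the spread (two-sided exact permutation test, p = 0.6) and that turned negative without DOX-negative replicate 2 (-0.039).

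Glutathione is made by glutamate-cysteine ligase, a pair of a catalytic subunit, GCLC, and a modifier subunit, GCLM, and then by glutathione synthetase. GCLC (chr6:53497341-53616970, minus strand) was at 504, 478 and 445 CPM in DOX-negative cells and at 368, 460 and 374 CPM in DOX-positive cells. DOX-positive replicate 2 lay inside the DOX-negative range, and the other two lay below it. The log2 fold change was -0.25 (SE 0.0763, adjusted p = 0.0190). The call was lost without DOX-negative replicate 1 (adjusted p = 0.110), or when DOX-positive replicate 1 (0.118) or 3 (0.105) was left out, in edgeR refits, while without DOX-positive replicate 2 the log2 fold change was -0.36. GCLC exons overlap AL033397.2 on the opposite strand.

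GCLM (chr1:93885205-93909456, minus strand), whose promoter window holds the motif printed above, was at 152, 146 and 162 CPM in DOX-negative cells. It was at 125, 99.3 and 121 CPM in DOX-positive cells, all below the DOX-negative libraries. GCLM had a log2 fold change of -0.41 (SE 0.0783, adjusted p = 0.000446), and the level fell by 24.8%. Both subunits were called lower, and the log2 ratio of GCLC to GCLM counts was 1.63 ± 0.149 (SD, n = 3) in DOX-negative and 1.80 ± 0.360 (SD, n = 3) in DOX-positive cells. DOX-positive replicate 2, the library with the highest GCLC and the lowest GCLM of its group, had a ratio of 2.21. The difference of 0.16 in this ratio was within the spread (two-sided exact permutation test, p = 0.7, where 0.1 is the smallest that 3 against 3 allow) and was -0.044 without that library.

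GSR, the reductase that returns oxidized glutathione to its reduced form with NADPH, was at 320, 338 and 319 CPM in DOX-negative cells. The DOX-positive libraries were at 239, 223 and 239 CPM, with a wide gap between the groups. Its log2 fold change was -0.48 (SE 0.0611, adjusted p = 4.66e-06), and the level fell by 28.2%.

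GPX4 (chr19:1103926-1106791, plus strand), the selenoprotein that reduces lipid hydroperoxides with glutathione, was the one of the 10 whose log2 fold change lay above 0. Its level was 118, 113 and 125 CPM in DOX-negative cells and 142, 132 and 120 CPM in DOX-positive cells. The groups overlapped, with DOX-positive replicate 3 inside the DOX-negative range. Its log2 fold change was 0.15 (SE 0.0710), with a 95% interval of 0.0021 to 0.30 (edgeR unadjusted p = 0.0471, adjusted p = 0.126). On the deposited TPM scale the value was -0.25, but that scale moved the median of all genes to -0.35. Relative to the median of all genes, GPX4 lay between 0.096 and 0.21 above it in all 16 alternative analyses, and it was called in 0 of them.

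In the thioredoxin system, TXNRD1 (chr12:104215779-104350305, plus strand), the selenoprotein reductase of cytosolic thioredoxin, was one of the most abundant transcripts, and 0.0210% of genes tested had a higher mean CPM. It was at 3218, 3373 and 3259 CPM in DOX-negative cells and at 3035, 2960 and 3034 CPM in DOX-positive cells. Every DOX-positive library was lower, but by little. The log2 fold change was -0.13 (SE 0.0627, adjusted p = 0.147), with a 95% interval of -0.26 to 0.0046. For this gene the interval thus held both no change and a fall of up to 0.26.

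SRXN1 (chr20:646615-653370, minus strand) encodes sulfiredoxin, which repairs overoxidized peroxiredoxins. It was at 180, 196 and 190 CPM in DOX-negative cells and at 151, 142 and 155 CPM in DOX-positive cells, with no overlap. SRXN1 had a log2 fold change of -0.34 (SE 0.0640, adjusted p = 0.000414), and the level fell by 20.9%. PRDX1, a substrate of sulfiredoxin, also fell (log2 fold change -0.30, adjusted p = 0.00549), and the log2 ratio of SRXN1 to PRDX1 counts differed between the groups by -0.036 (two-sided exact permutation test, p = 0.7), a value that changed sign without DOX-negative replicate 2 (0.033) or DOX-positive replicate 1 (0.014). SRXN1 exons overlap AL121758.1 on the same strand, so reads of this pair may be split between them.

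GSR and TXNRD1 are related NADPH-dependent flavoenzymes that serve glutathione and thioredoxin, and the ratio of their transcripts was followed within each library. The log2 ratio of TXNRD1 to GSR counts was 3.33, 3.32 and 3.35 in DOX-negative cells and 3.67, 3.73 and 3.66 in DOX-positive cells. The groups were far apart relative to the spread within them, with a difference of 0.35. The two-sided exact permutation test gave p = 0.1, the smallest that 3 libraries against 3 allow (20 arrangements), and 0.4 after Benjamini-Hochberg adjustment over the 4 ratios tested. Leaving out any 1 library kept the difference between 0.33 and 0.36.

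**Figure D2:**
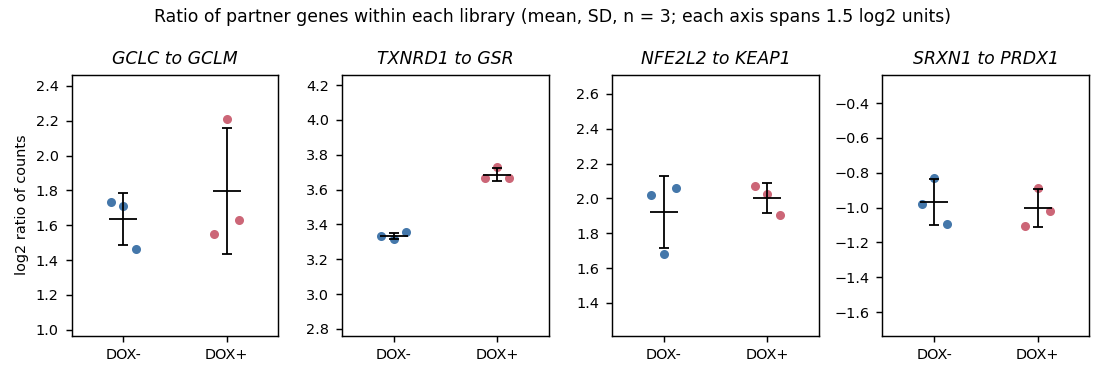
Log2 ratio of counts for 4 pairs of functional partners in each library, DOX-negative and DOX-positive; points are libraries and lines are group means. The TXNRD1 to GSR ratio lies near 3.33 in all DOX-negative libraries and between 3.66 and 3.73 in the DOX-positive ones, while the other 3 ratios overlap between groups.

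NQO1 (chr16:69706996-69726951, minus strand), the quinone reductase that is widely used as a readout of NRF2, was at 1198, 1110 and 1226 CPM in DOX-negative cells. It was at 797, 758 and 758 CPM in DOX-positive cells. The highest DOX-positive library was well below the lowest DOX-negative one. Its level fell by 34.6%, a log2 fold change of -0.61 (SE 0.0632, adjusted p = 2.21e-07), and NQO1 was the member that passed the threshold in all 16 alternative analyses. Its exons overlap AC092115.2 on the opposite strand.

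HMOX1 (chr22:35380361-35394214, plus strand), the inducible heme oxygenase, is controlled by both NRF2 and the repressor BACH1. Its level was 29.2, 28.2 and 36.8 CPM in DOX-negative cells and 24.1, 12.1 and 23.1 CPM in DOX-positive cells. The groups did not overlap, but DOX-positive replicate 2, with 232 counts, was far below the other two. The log2 fold change of -0.67 (SE 0.165, adjusted p = 0.00424) was the largest of the 10 and the least precise, and it was -0.41 without DOX-positive replicate 2 (edgeR adjusted p = 0.00790). With DESeq2 the call was lost (adjusted p = 0.122) at a log2 fold change of -0.67. BACH1 rose (log2 fold change 0.28, adjusted p = 0.00223), although on the deposited TPM scale its value was -0.11, against a median of all genes of -0.35. The genes of any kind whose centred log2 CPM ran closest to HMOX1 over the 6 libraries were CAMK4 (root mean square distance 0.109), P2RY6 (0.141) and CYP1A1 (0.157), with log2 fold changes of -0.77, -0.76 and -0.66. Since likeness over these libraries chose the 3 genes, their falls are a description.

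**Figure D3:**
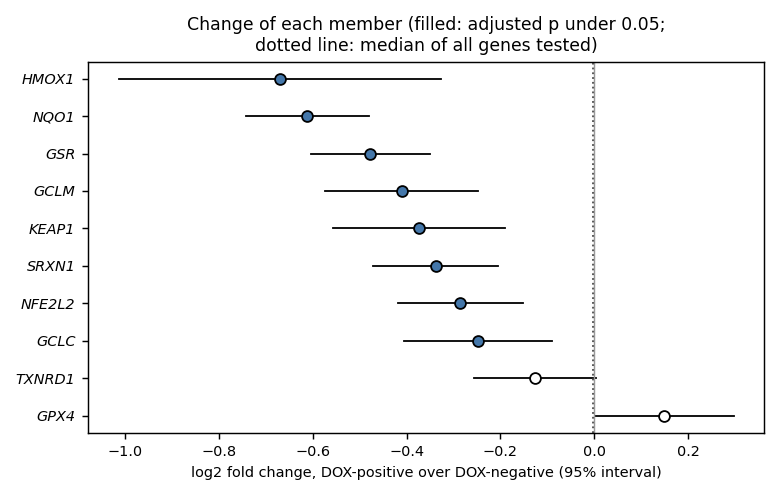
Log2 fold change of each of the 10 genes, DOX-positive over DOX-negative, from the edgeR fit, with 95% intervals. The intervals of 8 genes lie wholly below 0, that of TXNRD1 runs from -0.26 to 0.0046, and that of GPX4 from 0.0021 to 0.30.

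Levels of different genes were compared per transcript length, on the TPM scale rescaled without the 5 short RNAs that dominate the deposited TPM. In DOX-negative cells the highest level was that of TXNRD1 at 1955 ± 85.6 TPM, followed by NQO1 at 1293 ± 42.3 TPM (mean ± SD, n = 3). GCLC (347 ± 28.4 TPM), GSR (289 ± 16.1 TPM), GPX4 (273 ± 6.29 TPM) and SRXN1 (202 ± 10.6 TPM) formed the middle of the order. NFE2L2 itself was at 156 ± 3.60 TPM, above GCLM (82.7 ± 2.07 TPM), HMOX1 (61.8 ± 7.61 TPM) and KEAP1 (56.5 ± 7.62 TPM). Neighbours in this order were separated in their ranges except GSR from GPX4 and HMOX1 from KEAP1.

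In DOX-positive cells, TXNRD1 (1761 ± 25.2 TPM) and NQO1 (832 ± 13.0 TPM) kept the first 2 places. GPX4 moved up to rank 3 with 297 ± 20.7 TPM, ahead of GCLC (287 ± 39.2 TPM) and GSR (204 ± 7.28 TPM). GPX4 and GCLC overlapped in their ranges, while GSR was below both. SRXN1 (157 ± 6.63 TPM), NFE2L2 (125 ± 5.21 TPM) and GCLM (61.2 ± 6.93 TPM) came next, and KEAP1 (42.8 ± 2.30 TPM) and HMOX1 (38.3 ± 12.7 TPM) overlapped at the bottom.

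The other genes of the pathway were described with 11 lists of 154 genes, of which 143 were tested. Outside the 10 genes, 33 of these fell (23.1%, against 13.7% of all genes tested) and 22 rose (15.4%, against 13.0%), with a median log2 fold change of 0.035. The falls were spread unequally over the lists. They made up 15 of 22 tested in the list of other NRF2 targets, whose median was -0.35, and 0 of 13 in the list of NRF2 control, whose median was 0.11. The former list does not hold every NRF2 target, since genes of glutathione, thioredoxin and NADPH metabolism were counted in other lists. Medians there were 0.059 for glutathione supply, -0.0066 for the thioredoxin system and -0.042 for NADPH supply.

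**Figure D4:**
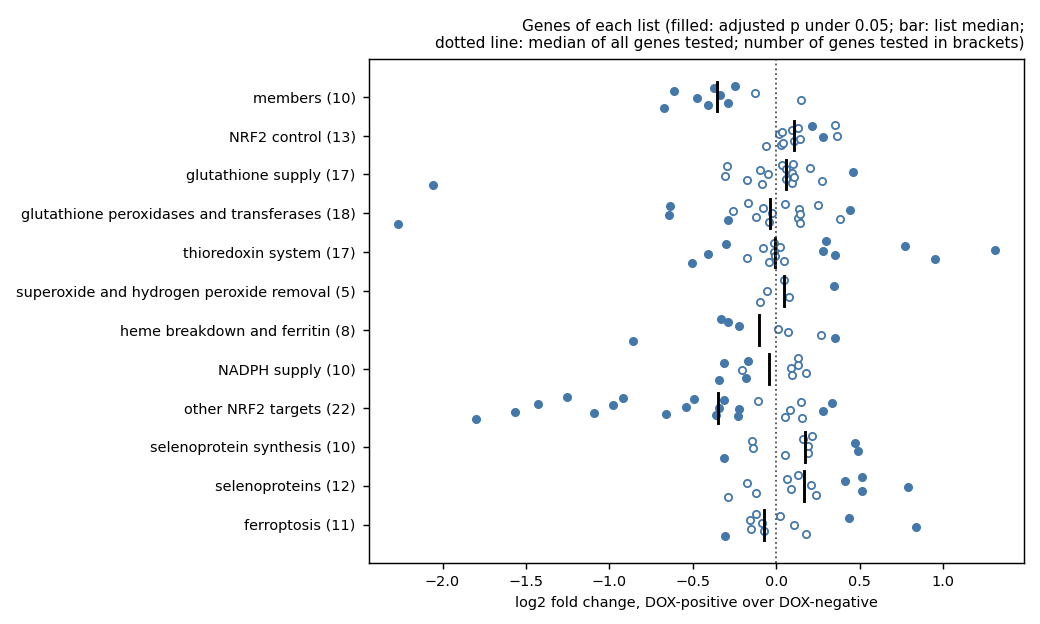
Log2 fold change, DOX-positive over DOX-negative, of each tested gene of the 10 members and the 11 pathway lists; filled points have an adjusted p under 0.05, bars are list medians and the dotted line is the median of all genes tested. The members (median -0.36) and the other NRF2 targets (-0.35) lie to the left, and the selenoprotein lists (0.18 and 0.17) to the right.

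Of the genes that control NRF2, BACH1 and NFE2L1 (log2 fold change 0.21, adjusted p = 0.0184), a related factor of proteasome stress, were called higher, and both were below 0 on the deposited TPM scale (-0.11 and -0.18) but above the median of all genes there (-0.35). The NFE2L1 call was lost without DOX-negative replicate 1 or 3 or DOX-positive replicate 1 (edgeR adjusted p between 0.0823 and 0.0894). SQSTM1, the autophagy receptor that binds KEAP1, had mean levels of 930 and 949 CPM in DOX-negative and DOX-positive cells and was not called (adjusted p = 0.775).

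Glutathione supply showed few calls. GLRX2, a mitochondrial glutaredoxin, rose (log2 fold change 0.46, adjusted p = 0.00212) and GGT5, a transpeptidase that cleaves glutathione conjugates, fell from between 75 and 84 counts per library to between 7 and 33 (log2 fold change -2.06, adjusted p = 5.37e-05). SLC7A11, the cystine transporter that feeds glutathione synthesis, was at mean levels of 549 and 531 CPM and was not called (adjusted p = 0.637). Of 18 tested glutathione peroxidases and transferases, 4 fell (22.2%, against 13.7% of all genes tested) and 1 rose (5.56%, against 13.0%). GSTP1, the main glutathione transferase of many epithelia, fell by 0.64 on the log2 scale (adjusted p = 1.23e-05), as did GSTA4 (adjusted p = 0.0151), whose call was lost without DOX-negative replicate 1 (0.0601) or DOX-positive replicate 3 (0.0569). GPX2, an epithelial peroxidase, was at 25, 21 and 30 counts and then at 2, 6 and 7 counts, near the floor (log2 fold change -2.27, adjusted p = 0.00134). GSTO1 was the gene that rose (0.44, adjusted p = 7.58e-05).

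Of the 17 genes of the thioredoxin system, 6 were higher (35.3%, against 13.0% of all genes tested) and 3 lower (17.6%, against 13.7%). Those that rose most were SESN2 (log2 fold change 1.31, adjusted p = 5.78e-10) and SESN1 (0.95, adjusted p = 2.38e-05), stress-induced sestrins that are known p53 targets, and TXNIP (0.77, adjusted p = 0.00930), which binds and inhibits thioredoxin. The genes that fell were SESN3 (-0.50, adjusted p = 2.14e-05), thioredoxin itself, TXN (-0.41, adjusted p = 0.000158), and PRDX1. Among 5 tested genes that remove superoxide and hydrogen peroxide, the mitochondrial dismutase SOD2 rose (0.35, adjusted p = 0.000457), a value that was -0.044 on the deposited TPM scale, where the median of all genes was -0.35, and the other 4 did not pass the test.

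Heme breakdown and ferritin genes fell in 4 of 8 cases and rose in 1. ABCB6, a porphyrin transporter, fell by 0.86 on the log2 scale (adjusted p = 0.000449), the ferritin light chain FTL by 0.33 (adjusted p = 0.00160) and FECH, which inserts iron into heme, by 0.29 (adjusted p = 0.00478). Ferritin genes have many processed copies, so the count of FTL is uncertain. HMOX2, the constitutive heme oxygenase, rose by 0.35 (adjusted p = 0.0164) and was at -0.051 on the deposited TPM scale, above its median of -0.35. The HMOX2 groups overlapped, and the call was lost without DOX-negative replicate 1 or DOX-positive replicate 1 or 3 (edgeR adjusted p between 0.0784 and 0.106). Of 10 genes of NADPH supply, 4 fell (40.0%, against 13.7% of all genes tested) and 0 rose (against 13.0%). These included TKT (-0.34, adjusted p = 0.000435) and TALDO1 (-0.18, adjusted p = 0.0395) of the pentose phosphate pathway. The TALDO1 call was lost without DOX-negative replicate 1 or 3 or DOX-positive replicate 2 or 3 (edgeR adjusted p between 0.0816 and 0.148).

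Among the pathway lists, that of other NRF2 targets had the median closest to that of the 10 genes. The lists were drawn up with earlier results of these data known, so this closeness is a description and not independent support. Counts of TRIM16L fell from 1835, 1994 and 2043 to 1034, 779 and 621 (log2 fold change -1.25, adjusted p = 4.93e-11), and those of TRIM16 from 1511, 1674 and 1584 to 953, 779 and 651 (-0.98, adjusted p = 3.09e-09). These are near-identical copies and their reads may be shared. OSGIN1, an oxidative stress-induced growth inhibitor, fell by 0.92 (adjusted p = 1.04e-05) and UGDH, which makes UDP-glucuronate for conjugation, fell by 0.66 (adjusted p = 3.01e-08), both on the log2 scale. The epoxide hydrolase EPHX1 fell by 0.50 (adjusted p = 4.88e-06). AKR1C1 (-1.80, adjusted p = 0.0125), AKR1B10 (-1.56, adjusted p = 0.00471) and AKR1C2 (-1.43, adjusted p = 0.0214), aldo-keto reductases, had the largest fitted falls at 45 counts or fewer per library, and the AKR1C genes are close copies whose reads may be shared. The AKR1C1 groups overlapped, and its value was -1.19 without DOX-negative replicate 2 (edgeR adjusted p = 0.149), with the call also lost without DOX-positive replicate 2 (0.0520). The AKR1C2 call was lost with DESeq2 (adjusted p = 0.0501) and in 4 of the 6 edgeR fits that left out a library, those without DOX-negative replicate 1 or 2 or DOX-positive replicate 2 or 3 (adjusted p between 0.0698 and 0.125). PANX2 (0.33, adjusted p = 0.0327) and NQO2 (0.28, adjusted p = 0.0333) were called higher, and both were below 0 on the deposited TPM scale (-0.056 and -0.10) but above the median of all genes there (-0.35). Each of these 2 calls was lost in 4 of the 6 edgeR fits that left out a library, with an adjusted p of up to 0.128 for PANX2 (without DOX-negative replicate 1 or 3 or DOX-positive replicate 2 or 3) and up to 0.161 for NQO2 (without DOX-negative replicate 1 or 2 or DOX-positive replicate 1 or 3).

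Of 15 genes of this list with a promoter window, 4 (26.7%) held the motif, against 19.6% of genes tested with a window. They were EPHX1, CBR1, PIR and ABCC4, all called lower, as were 15 of the 22 genes tested in this list. The log2 fold change was -0.54 for PIR (adjusted p = 0.00955), -0.31 for CBR1 (adjusted p = 0.00229) and -0.23 for ABCC4 (adjusted p = 0.0118). PIR was at -0.35 and lost its call without DOX-negative replicate 3 (edgeR adjusted p = 0.0995), and ABCC4 lost its call without DOX-negative replicate 1 (0.0654) or DOX-positive replicate 1 (0.0621). Over the pathway genes outside the 10, 10 of 28 windows of genes called lower and 5 of 32 windows of genes called higher held the motif. Counted by gene, it was in 10 of 24 called lower and 5 of 18 called higher. Over all genes tested, the shares were 14.6% of windows for genes called lower and 15.2% for genes called higher. By gene they were 19.9% and 21.5%. The stretches are printed as before, except that the PIR window ends fewer than 20 bases after the motif. Printing was limited to genes of this list called lower, so the 5 pathway genes called higher with the motif are not shown.
EPHX1, chr1:225825256-225825304, plus strand: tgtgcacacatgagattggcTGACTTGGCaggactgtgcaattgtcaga
CBR1, chr21:36069845-36069893, plus strand: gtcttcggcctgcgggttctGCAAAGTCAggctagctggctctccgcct
PIR, chrX:15493284-15493327, minus strand: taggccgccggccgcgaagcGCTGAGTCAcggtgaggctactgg
ABCC4, chr13:95301572-95301620, minus strand: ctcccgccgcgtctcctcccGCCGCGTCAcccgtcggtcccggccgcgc

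TXNRD1 and GPX4, which did not pass the test, are both selenoproteins. Of 12 genes tested in a list of further selenoproteins, 4 rose (33.3%, against 13.0% of all genes tested) and 0 fell (against 13.7%). The median log2 fold change was 0.17, and 3 of the 12 were below 0 without being called. That list leaves out selenoproteins counted in other lists, among which GPX2 fell and TXNRD3 and SEPHS2 rose. SELENOT, of the endoplasmic reticulum, rose by 0.52 (adjusted p = 2.25e-05), SELENOK by 0.51 (adjusted p = 0.00905) and SELENOP, the secreted selenium carrier, by 0.79 at 51 to 139 counts (adjusted p = 0.0247). The SELENOP groups overlapped, its value was 0.40 without DOX-positive replicate 2 (edgeR adjusted p = 0.247), and its call was also lost without DOX-negative replicate 2 (0.0749) or 3 (0.0821). The SELENOK call was lost without DOX-positive replicate 1 (edgeR adjusted p = 0.0508). Selenoprotein synthesis had 2 genes higher, SEPHS2, which makes selenophosphate (0.49, adjusted p = 1.42e-05), and SEPSECS (0.47, adjusted p = 0.0109, or 0.0713 without DOX-negative replicate 3), and 1 lower, SEPHS1 (-0.31, adjusted p = 0.00141). In the ferroptosis list, GCH1, which starts tetrahydrobiopterin synthesis, rose by 0.84 (adjusted p = 1.69e-07) and NCOA4, the receptor for ferritin turnover, by 0.44 (adjusted p = 1.07e-05), while the desaturase FADS1 fell by 0.31 (adjusted p = 0.00183).

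An earlier scan of these data had picked the heptamer ATCAGTA from 3′UTRs. It was in the principal transcripts of 2 of the 10 genes, once in NFE2L2, in the 3′UTR, and once in GCLC, before the 3′UTR, against 16.9% of 12376 genes tested with such a transcript. Genes with the heptamer had a median log2 fold change of -0.087 and those without it 0.0067. Since the heptamer was picked from these same data, this difference is a description and no support for it. The 8 genes of the group that lack it had a median of -0.39, and the 2 that hold it had a median of -0.27.

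The number of calls, but not the place of these genes below the median, depended on the scale used. On the deposited TPM, in which 5 short RNAs held between 34.4% and 64.4% of a library and the lowest share was in DOX-negative replicate 2, 2 of the 10 genes were called (NQO1 and HMOX1, limma adjusted p = 0.0181 and 0.0190). On that scale the median log2 fold change of the 10 genes was -0.73 and that of all genes -0.35. After rescaling without these RNAs, 7 were called. Under each of the 16 alternatives, 9 of the 10 genes were below the median of all genes and GPX4 was above it.

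**Figure D5:**
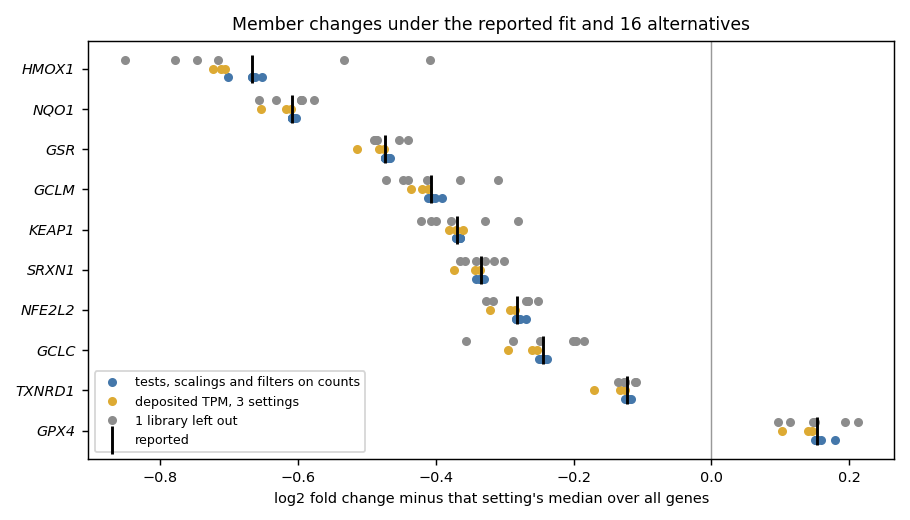
Log2 fold change of each of the 10 genes minus the median of all genes, in the edgeR fit and in 16 alternative analyses. All values lie below 0 for 9 genes and above 0 for GPX4, and HMOX1 has the widest range, from -0.85 to -0.41.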

How the data were processed

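RNA-Seq libraries of DU-145-DR/tet-MUC1shRNA cells were prepared from total RNA with a stranded mRNA kit. Read counts (whole numbers, 28008 genes) and TPM (25546 genes) were deposited by the authors, 1 table each. The submitters' processing notes name STAR, DESeq2 and the build GRCh38 (hg38), and the counting step, its strand setting and the annotation are not given in the sources used here. Samples were grouped by their titles. Columns carry another abbreviation of the resistant line and were matched by DOX state and replicate number.

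Differential expression used the counts and edgeR 4.0.16 under R 4.3.3 (filterByExpr, 14292 genes, TMM, glmQLFit and glmQLFTest, two-sided). The threshold was a Benjamini-Hochberg adjusted p under 0.05 over all genes tested, and adjusted p values in the text are from this test unless another tool is named. Standard errors were derived from the F statistic as the size of the log2 fold change over root F. Pairs of libraries of 1 group differed by more than sampling noise (chi-square per degree of freedom between 3.78 and 20.2). The 3-count floor reflects counting error alone, and the reads carried no molecular identifiers as far as is stated. If the 3 cultures of a group were not independent, p-values measure technical spread.

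The members and lists were chosen with earlier results of these data known. All members, MUC1, the 3 largest rises and the 3 largest falls among called genes of each list, and the 3 genes nearest to the member with the largest change were named by rule. Symbols were matched directly (199 of 199). TRIM16, TRIM16L, OSGIN1, UGDH, EPHX1, PIR, CBR1, ABCC4, SQSTM1 and SLC7A11 were named after their values were seen. A few genes are left unreported. Gene positions and transcripts are from GENCODE 29 and promoter windows from RefSeq. Alternatives used DESeq2 1.42.0, limma 3.58.1 on log2(TPM + 1) and log2(TPM + 0.1), where folds of low genes are understated, TPM rescaled without RN7SL1, RN7SL2, RN7SL3, RN7SK and RPPH1, other factors and filters, thinned counts, a replicate block and each library left out.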

Additional observations from a re-analysis of the deposited data

How the results depend on the processing

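Over 16 alternatives, the 10 genes kept their direction and side of the threshold in 141 cases, lost the call in 17 and reversed in 2. Both reversals were those of GPX4 on the deposited TPM, at -0.25 with either pseudocount. With log2(TPM + 1) and log2(TPM + 0.1), 295 and 311 genes were called in place of 3816, 2 members under each in place of 8 (all 2 lower), and 9 other pathway genes under each in place of 55, while the median of all genes moved to -0.35 and -0.39 and the share of calls that were higher from 48.8% to 6.78% and 7.07%. Pathway genes that reversed there were BACH1 (-0.11 and -0.11), HMOX2 (-0.051 and -0.054), NFE2L1 (-0.18 and -0.18), NQO2 (-0.10 and -0.11), PANX2 (-0.056 and -0.057) and SOD2 (-0.044 and -0.045). TPM rescaled without the short RNAs called 7 members and lost GCLC (adjusted p = 0.0691), and DESeq2 called 7 and lost HMOX1 (0.122). Leaving out each library gave 2784 to 3645 genes, 7 to 8 members, 7 to 8 members lower, 41 to 52 pathway genes and a MUC1 log2 fold change of -2.62 to -2.41. Partner ratios then ranged from -0.044 to 0.29 for GCLC to GCLM, from -0.039 to 0.15 for NFE2L2 to KEAP1, from -0.10 to 0.033 for SRXN1 to PRDX1 (0.014 without DOX-positive replicate 1) and from 0.33 to 0.36 for TXNRD1 to GSR. The cause of these changes was not tested.

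Same-numbered libraries did not deviate together (correlations of -0.046, -0.12 and -0.032), so these values gave no sign of pairing by number. At 3 libraries a group, such a check cannot show that the numbers do not pair the samples. A replicate block called 3158 genes, 3136 of them shared with the 3816, 8 members (8 shared) and 48 pathway genes. Named pathway genes kept their call in 578 cases, lost it in 101 and reversed in 12. With 3 libraries a group, the change of TXNRD1 was not resolved.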
